A study of Homo sapiens with 6 samples.

Results

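The mitochondrial ribosomal protein genes are the nuclear genes whose symbols begin with MRPL or MRPS, and 71 of them were examined in RNA-SEQ libraries of NALM6 cells. They were chosen by symbol, MRPL or MRPS followed by a number, with pseudogenes and antisense genes left out. Symbols were read from the deposited expression values of 16730 genes, so a gene absent there could not enter. How those 16730 genes were selected is not stated. No fold change or p-value entered the rule. There were 46 MRPL and 25 MRPS genes, spread over 21 chromosomes. All 71 were in the count table of 57905 genes, and all 71 passed the filter on low counts that left 16622 genes for testing. NALM6 is an established human B-cell precursor acute lymphocytic leukemia line. It was treated for 24 h with 500 nM THZ1, a covalent inhibitor of CDK7, or with the solvent DMSO. CDK7 is the kinase of the CDK-activating complex and of the transcription factor TFIIH, where it phosphorylates RNA polymerase II. Each treatment has 3 libraries of total RNA from this single cell line, and the labels do not say whether the 3 are separate cultures, so the p-values measure the spread between these libraries, which may be technical. No genetic change separated the groups, and 1 dose and 1 time were sequenced.

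The mitochondrial ribosome translates the few messenger RNAs encoded by mitochondrial DNA, all of them for subunits of the respiratory chain and ATP synthase. Its ribosomal RNAs come from mitochondrial DNA, whereas its proteins are encoded in the nucleus, made in the cytoplasm and imported. The large subunit carries the peptidyl transferase centre and the small subunit binds the messenger RNA and decodes it. Many of the proteins belong to families that bacterial ribosomes also have, and the others are particular to mitochondria. The symbols do not always name the subunit: MRPS18A and MRPS30 sit in the large subunit, and MRPS36 is a component of the oxoglutarate dehydrogenase complex rather than of the ribosome. By these roles, 48 of the 71 genes encode large subunit proteins, 22 encode small subunit proteins, and MRPS36 remains.

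The libraries held 11015480 to 11164840 counts in the DMSO group and 7876402 to 8314306 counts in the THZ1 group. All 10 markers of B-cell precursors were above 1 CPM (CPM is the read count relative to the library's size after TMM, the depth scaling of edgeR) in every library, although their summed level was 3569 to 3836 CPM with DMSO and 1666 to 1757 CPM with THZ1. The summed level of 5 T cell markers was at most 0.165 CPM with DMSO and 0.969 CPM with THZ1. The erythroid markers summed to 0.164 to 0.253 CPM with DMSO and 2.94 to 3.81 CPM with THZ1, and the 5 myeloid markers to 3.88 to 4.63 CPM and 18.5 to 20.1 CPM. CD8A had no count in any library. Genes of mitochondrial DNA took 4.32% to 4.37% of the counts with DMSO and 12.6% to 13.6% with THZ1. What these values contribute to the results was not tested. In bulk RNA, fewer cells and less RNA per cell cannot be told apart.

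More of these genes were lower than higher after THZ1. At an adjusted p below 0.05 (edgeR's quasi-likelihood test, Benjamini-Hochberg over all genes tested), 47 of the 71 genes were lower, which is 66.2%, against 41.1% of all 16622 genes tested and 47.6% of the protein-coding ones. Another 16 of the 71 were higher, or 22.5%, against 43.5% of all genes tested and 36.3% of the protein-coding ones. The remaining 8 were not called. Called in either direction were 84.5% of all genes tested, so most genes of any kind passed the test here. The log2 fold change of THZ1 against DMSO had a median of −0.59 over the 71 genes, with quartiles at −1.05 and 0.02, against 0.03 over all genes tested and −0.20 over the protein-coding ones. The 3 DMSO values and the 3 THZ1 values did not overlap for 63 of the 71 genes, 47 of them lower and 16 higher, against 84.7% of all genes tested, 41.3% lower and 43.4% higher.

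Changes of at least 1.5 in size on the log2 scale were less frequent. In the lower direction 13 of the 71 genes passed this threshold as well as the test, against 12.9% of all genes tested and 13.3% of the protein-coding ones. In the higher direction MRPL34, MRPL38 and MRPL41 passed, 3 of the 71, against 24.6% of all genes tested and 15.3% of the protein-coding ones. Summed over the 71 genes, the level was 3967 ± 351 CPM with DMSO and 3016 ± 7.59 CPM with THZ1 (mean ± SD, n = 3 each). As a share of all counts the sum was 0.431% ± 0.0284 with DMSO and 0.276% ± 0.000135 with THZ1 (SD, n = 3 each).

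The wider spread of the sum in the DMSO group followed single libraries. DMSO replicate 3 had the highest of the DMSO values for 59 of the 71 genes, against 38.3% of all genes tested, and DMSO replicate 2 had the lowest for 52 of them. Without DMSO replicate 3 the fit called 47 of these genes lower and 17 higher, with a median log2 fold change of −0.48. Without DMSO replicate 2 it called 48 lower and 14 higher, with a median of −0.69. When any single library was left out, 58 of the 63 called genes kept their call and 5 did not.

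**Figure D1:**
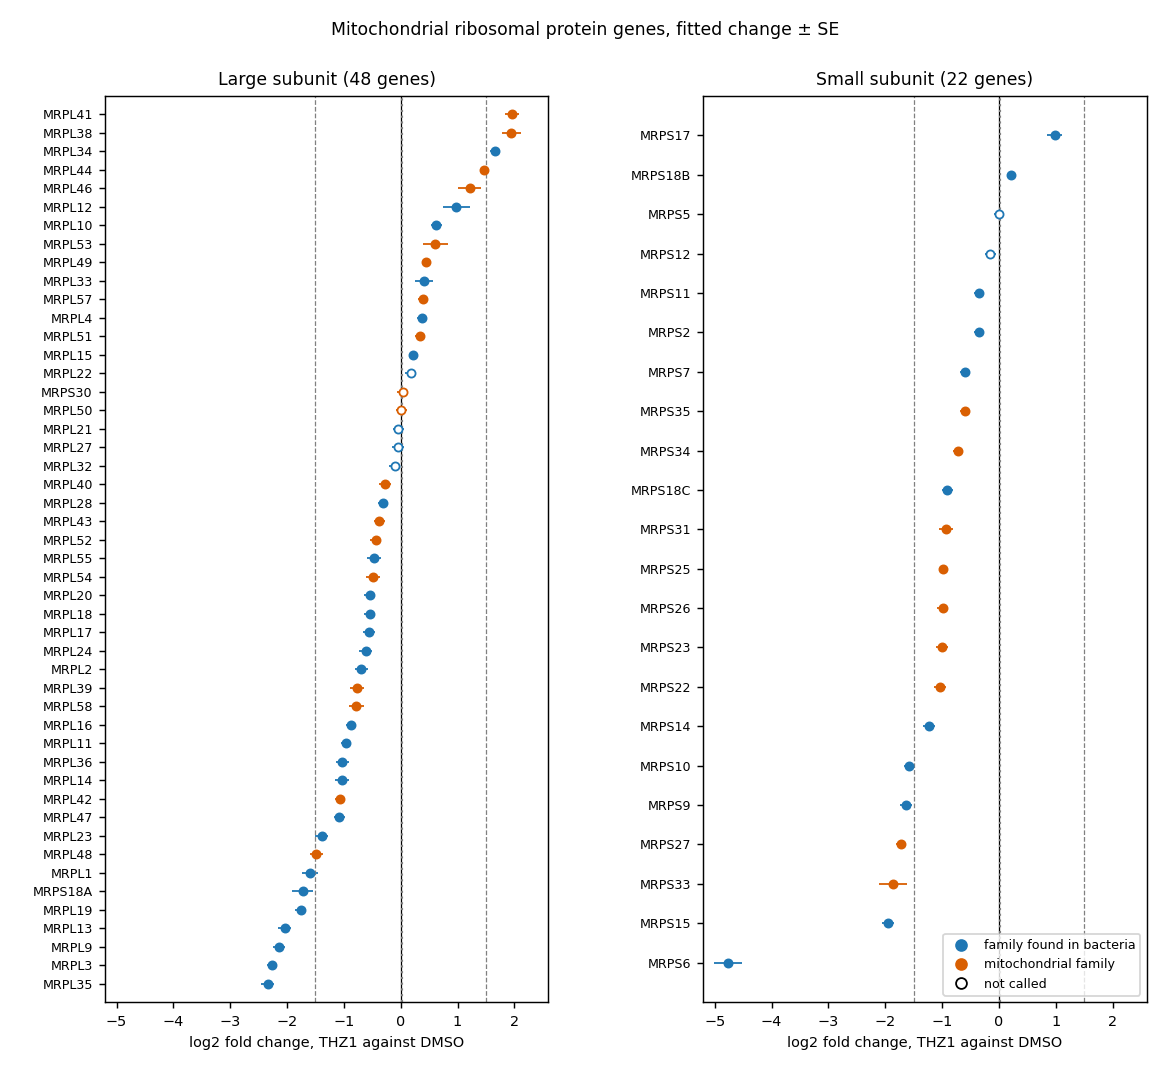
Fitted log2 fold change of THZ1 against DMSO (x axis, ± SE) for the 48 large subunit genes (left) and the 22 small subunit genes (right), ordered by value; filled points were called at an adjusted p below 0.05, open points were not, and dashed lines mark 1.5 in either direction. The small subunit genes lie mostly left of 0, with MRPS6 at −4.77 far from the rest, whereas the large subunit genes run from MRPL35 at −2.34 to MRPL41 at 1.96.

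The small subunit genes were lower in 18 of 22 cases and higher in 2, with a median log2 fold change of −0.96. Those of the large subunit were lower in 28 of 48 cases and higher in 14, with a median of −0.46. The difference between the subunits was not tested. Split further, all 9 small subunit genes of mitochondrial families were lower, between −1.87 and −0.59, with a median of −0.99. Of the 13 small subunit genes of families shared with bacteria, 9 were lower and 2 higher, with a median of −0.59. For the large subunit, 20 of 30 genes of bacterial families were lower and 6 higher, with a median of −0.59. The 18 large subunit genes of mitochondrial families were divided evenly, with 8 lower and 8 higher and a median of 0.02.

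MRPS6, the counterpart of a bacterial protein at the small subunit's platform, showed the largest change of the 71. Its level was 18.9, 19.8 and 21.01 CPM in the DMSO libraries and 0.526, 0.831 and 0.802 CPM in the THZ1 libraries, a log2 fold change of −4.77 ± 0.24 (SE; edgeR, adjusted p = 5.1e-18). The groups are far apart, and each THZ1 library was below 1 CPM. MRPS6 has 3 exons across 69811 bases at chr21:35445524-35515334 on the plus strand (GRCh37, as are the other coordinates of genes here). SLC5A3, which shares 6.20% of the exon bases of MRPS6 on the same strand, had no count in any of the 6 libraries. That does not show SLC5A3 to be silent, since the handling of reads in shared exons is not given.

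Other small subunit genes past the fold threshold were MRPS15, MRPS33, MRPS27, MRPS9 and MRPS10. MRPS15, the counterpart of a bacterial protein that binds the small subunit's ribosomal RNA early in assembly, was at 73.7, 69.3 and 86.4 CPM with DMSO and 19.2, 20.1 and 20.1 CPM with THZ1 (log2 fold change −1.95 ± 0.10, edgeR, adjusted p = 1.5e-17). Its THZ1 libraries were close together, while DMSO replicate 3 was above the others. MRPS33, of a mitochondrial family, was at 11.4, 11.1 and 11.98 CPM with DMSO and 2.89, 5.26 and 1.34 CPM with THZ1 (−1.87 ± 0.24, edgeR, adjusted p = 2.4e-08). Here the THZ1 libraries were the scattered ones, and leaving out 1 library at a time gave −2.44 to −1.51. MRPS27, which has pentatricopeptide repeats, a fold that binds RNA, fell from a mean of 139.9 CPM to 42.3 CPM (−1.73 ± 0.08, edgeR, adjusted p = 7.5e-19).

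The 3 genes with the highest level per length stayed below the fold threshold. By the deposited log2(FPKM + 1), which takes gene length into account, MRPS34 was the highest of the 71 in the DMSO group at 8.52, followed by MRPS26 at 7.69 and MRPL51 at 7.61. MRPS34, a small subunit protein of a mitochondrial family, was at 143, 117 and 153 CPM with DMSO and 76.7, 85.8 and 88.6 CPM with THZ1 (log2 fold change −0.72 ± 0.09, edgeR, adjusted p = 6.4e-09). EME2 on the opposite strand covers 31.2% of its exon bases and rose by 0.64 (edgeR, adjusted p = 5.3e-09), and without strand in the counting their reads cannot be told apart. MRPS26 was at 69.8, 61.0 and 81.9 CPM with DMSO and 34.2, 34.9 and 38.1 CPM with THZ1 (−0.99 ± 0.10, edgeR, adjusted p = 1.3e-10).

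MRPS17 and MRPS18B were the 2 small subunit genes that were higher. MRPS17, the counterpart of a bacterial protein that binds the small subunit's RNA, was at 9.84, 9.10 and 11.4 CPM with DMSO and 21.3, 18.8 and 19.7 CPM with THZ1 (log2 fold change 0.98 ± 0.14, edgeR, adjusted p = 1.2e-07). MRPS17 lies at chr7:56019570-56024193 on the plus strand and shares 22.4% of its exon bases with a readthrough gene, ENSG00000249773. That gene had at most 0.415 CPM in any library. Because the handling of reads in shared exons is not given, the low count does not show that the readthrough was silent. MRPS12 and MRPS5, whose bacterial counterparts bear on decoding accuracy, were not called. MRPS12 was at 67.6, 56.96 and 78.2 CPM with DMSO and 58.9, 64.6 and 59.4 CPM with THZ1, and MRPS5 had group means of 85.5 ± 6.94 and 85.4 ± 4.27 CPM (SD, n = 3 each). The groups overlapped for both, with log2 fold changes of −0.15 ± 0.10 and −0.00 ± 0.08 (SE).

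The 3 MRPS18 genes are paralogues of a single bacterial protein and are found in mitoribosomes at different places, MRPS18B and MRPS18C in the small subunit and MRPS18A in the large one. They moved differently. MRPS18A was at 19.6, 13.9 and 21.4 CPM with DMSO and 4.602, 6.51 and 5.48 CPM after THZ1, a log2 fold change of −1.72 ± 0.18 (edgeR, adjusted p = 3.6e-10). MRPS18C was at 50.5, 49.9 and 56.7 CPM with DMSO and 25.5, 28.7 and 29.7 CPM with THZ1, or −0.91 ± 0.10 (edgeR, adjusted p = 5.7e-10). MRPS18B was at 62.9, 66.8 and 70.7 CPM with DMSO and 76.7, 77.7 and 79.4 CPM with THZ1, or 0.22 ± 0.08 (edgeR, adjusted p = 0.0113). No pair of groups overlapped, but the rise of MRPS18B was small, came out at −0.03 with library sizes alone as the scale, and lost its call without DMSO replicate 1 (0.16, edgeR, adjusted p = 0.128) or without THZ1 replicate 3 (0.20, edgeR, adjusted p = 0.0567). By the deposited log2(FPKM + 1) values MRPS18B changed by 0.06 (limma, adjusted p = 0.44) and was not called. MRPS18A shares 50.9% of its exon bases with RSPH9 on the opposite strand, whose change was 0.21 ± 0.15 (edgeR, adjusted p = 0.209), and MRPS18C shares 40.2% with ABRAXAS1, which fell by 0.76 (edgeR, adjusted p = 3.7e-09). The difference in change between the paralogues was not tested.

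In the large subunit, the genes past the fold threshold in the lower direction were MRPL35, MRPL3, MRPL9, MRPL13, MRPL19, MRPS18A and MRPL1, all of bacterial families. MRPL3, the counterpart of a bacterial protein that reaches toward the peptidyl transferase centre, was at 144, 145 and 157 CPM with DMSO and 34.6, 29.1 and 29.4 CPM with THZ1 (log2 fold change −2.26 ± 0.09, edgeR, adjusted p = 5.5e-21). MRPL3 had the highest mean CPM of the 71 genes in the DMSO group and lies at chr3:131181056-131221827 on the minus strand. MRPL35 was at 60.4, 67.5 and 61.1 CPM with DMSO and 11.2, 14.7 and 11.5 CPM with THZ1 (−2.34 ± 0.11, edgeR, adjusted p = 1.7e-18). For both genes the spread within a group was small beside the distance between the groups.

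MRPL9 was at 64.4, 63.4 and 72.2 CPM with DMSO and 16.6, 15.2 and 13.5 CPM with THZ1 (log2 fold change −2.14 ± 0.11, edgeR, adjusted p = 3.7e-18). OAZ3 on the opposite strand shares 15.2% of the exon bases of MRPL9 and fell by 1.51 (edgeR, adjusted p = 8.1e-13). MRPL13 was at 47.1, 50.2 and 52.7 CPM with DMSO and 11.3, 11.8 and 13.4 CPM with THZ1 (−2.04 ± 0.11, edgeR, adjusted p = 5.3e-17). MRPL19 was at 60.3, 62.6 and 65.2 CPM with DMSO and 19.5, 18.8 and 17.1 CPM with THZ1 (−1.76 ± 0.10, edgeR, adjusted p = 9.5e-17). In each of these genes every THZ1 library was below every DMSO library.

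**Figure D2:**
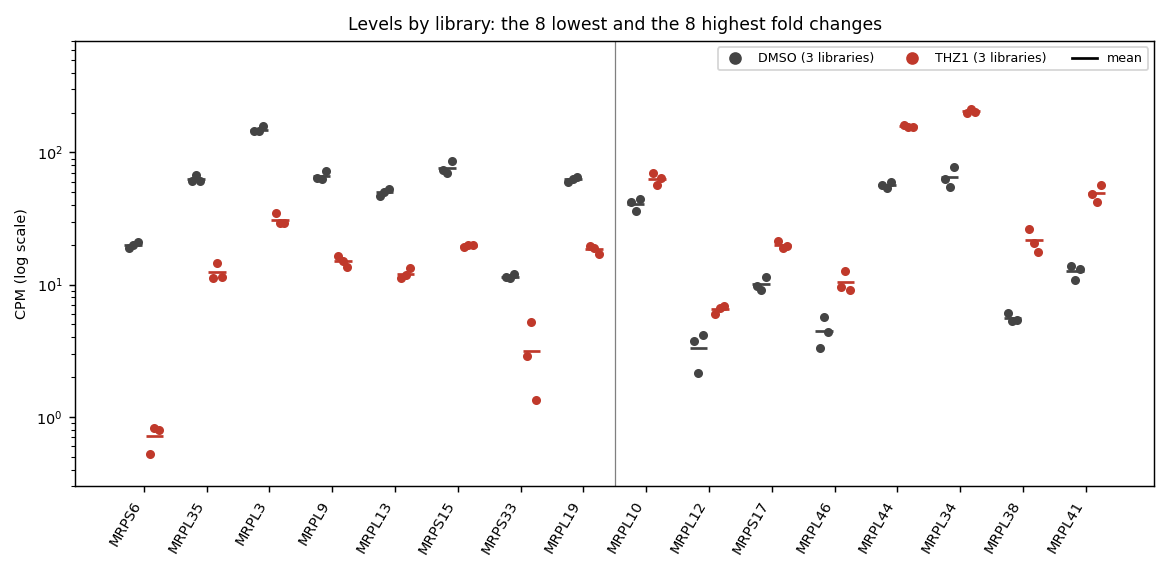
CPM on a log axis in each of the 6 libraries for the 8 genes with the lowest (left) and the 8 with the highest (right) log2 fold change of the 71; points are libraries and horizontal bars are group means. DMSO and THZ1 points do not overlap for any of the 16 genes, and the THZ1 points of MRPS33, between 1.34 and 5.26 CPM, are the most scattered.

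MRPL41, MRPL38, MRPL34 and MRPL44 rose most, all of them large subunit genes. MRPL41, of a mitochondrial family, was at 13.8, 10.8 and 13.2 CPM with DMSO and 48.4, 42.2 and 56.7 CPM after THZ1, a log2 fold change of 1.96 ± 0.12 (edgeR, adjusted p = 8.8e-16). MRPL41 is also the shortest of the 71 genes, with 2 exons in 677 bases at chr9:140446331-140447007 on the plus strand. MRPL34, the counterpart of a small basic bacterial protein, was at 62.7, 54.7 and 77.4 CPM with DMSO and 199.5, 214.7 and 201.9 CPM with THZ1, or 1.66 ± 0.09 (edgeR, adjusted p = 2.3e-17). It became the most abundant of the 71 by CPM in the THZ1 group. ABHD8, which lies on the opposite strand of MRPL34 and shares 14.6% of its exon bases, rose by 1.85 (edgeR, adjusted p = 5.8e-16).

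MRPL44, which has a fold related to the RNA-cutting enzyme RNase III, was at 56.5, 54.0 and 60.3 CPM with DMSO and 160.4, 156.8 and 155.6 CPM with THZ1 (log2 fold change 1.47 ± 0.08, edgeR, adjusted p = 7.9e-18). It was one of the most even genes, with group means of 56.9 ± 3.14 and 157.6 ± 2.503 CPM (SD, n = 3 each). MRPL44 stayed below the fold threshold with TMM scaling. MRPL38 was at 6.12, 5.33 and 5.401 CPM with DMSO and 26.6, 20.8 and 17.6 CPM with THZ1 (1.95 ± 0.16, edgeR, adjusted p = 1.7e-12). ENSG00000267426 shares 41.1% of the exon bases of MRPL38 on the same strand and had at most 0.131 CPM in any library. With the counting of reads in shared exons not stated, such a low count does not show that this gene was silent.

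The stalk of the large subunit, which recruits the elongation factors, includes MRPL10 at its base and MRPL12 in the flexible arm. Both genes were higher, whereas MRPL11, whose product sits beside the stalk, fell from a mean of 77.7 CPM to 39.9 CPM (log2 fold change −0.96 ± 0.09, edgeR, adjusted p = 4.1e-11). MRPL10 was at 42.2, 36.3 and 44.3 CPM with DMSO and 69.4, 56.3 and 63.9 CPM with THZ1 (0.63 ± 0.10, edgeR, adjusted p = 4.1e-07). MRPL12 was at 3.72, 2.13 and 4.14 CPM with DMSO and 6.05, 6.64 and 6.95 CPM with THZ1 (0.98 ± 0.24, edgeR, adjusted p = 3.8e-04). MRPL12 had the lowest mean CPM of the 71 in the DMSO group, although by level per length it was at 3.41 on the log2(FPKM + 1) scale. A readthrough gene, ENSG00000262660, shares 69.5% of its exon bases on the same strand and had no count in any library. How reads in shared exons were counted is not stated. The empty count thus does not show that ENSG00000262660 was silent, and reads of MRPL12 may have been lost.

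Among the other large subunit genes that were higher, MRPL4, MRPL15 and MRPL33 belong to bacterial families. MRPL46, MRPL49, MRPL51, MRPL53 and MRPL57 belong to mitochondrial ones. MRPL4 rose from a mean of 142.9 to 185.5 CPM (log2 fold change 0.38 ± 0.08, edgeR, adjusted p = 9.5e-05). MRPL51 was at 89.0, 79.0 and 109 CPM with DMSO and 112, 112 and 126 CPM with THZ1 (0.34 ± 0.09, edgeR, adjusted p = 0.00102). NCAPD2 on the opposite strand shares 27.6% of its exon bases and fell by 0.94 (edgeR, adjusted p = 3.4e-14). MRPL15, MRPL33 and MRPL53 did not keep their calls with every choice of libraries. MRPL15 had a log2 fold change of 0.22 ± 0.08 (edgeR, adjusted p = 0.0136), which came out at −0.03 with library sizes alone, and lost its call without any of DMSO replicates 1 and 2 and THZ1 replicates 1 and 2 (0.14 to 0.20, edgeR, adjusted p = 0.0518 to 0.0909). MRPL33 at 0.41 ± 0.15 lost it without DMSO replicate 2 (0.29, edgeR, adjusted p = 0.0803) or THZ1 replicate 3 (0.27, edgeR, adjusted p = 0.158). MRPL53 at 0.61 ± 0.23 lost it without THZ1 replicate 2 (0.39, edgeR, adjusted p = 0.159). One lower gene was in the same position: MRPL40 at −0.27 ± 0.11 lost its call without DMSO replicate 1 (−0.23, edgeR, adjusted p = 0.109) or THZ1 replicate 1 (−0.26, edgeR, adjusted p = 0.0586).

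Besides MRPS12 and MRPS5, the genes not called were MRPL21, MRPL22, MRPL27, MRPL32, MRPL50 and MRPS30, all in the large subunit. Over the 8 genes the log2 fold change ran from −0.15 to 0.17, with SEs of 0.08 to 0.10 and adjusted p of 0.102 to 0.988 (edgeR). MRPL22, the counterpart of a bacterial protein lining the exit tunnel, was at 32.6, 32.0 and 37.3 CPM with DMSO and 39.8, 35.9 and 39.2 CPM after THZ1, a log2 fold change of 0.17 ± 0.10. The groups of MRPL22 overlapped through DMSO replicate 3 and THZ1 replicate 2, and the gene was called without DMSO replicate 3 (0.23, edgeR, adjusted p = 0.0342). MRPL32, which has to be cut by a mitochondrial protease before it joins the ribosome, was at 57.2, 55.8 and 66.7 CPM with DMSO and 56.0, 51.9 and 58.7 CPM with THZ1. MRPL50 had means of 36.7 ± 1.57 and 36.8 ± 2.79 CPM, MRPS30 of 48.0 ± 3.77 and 49.1 ± 1.06 CPM, MRPL27 of 41.1 ± 6.32 and 39.9 ± 3.29 CPM, and MRPL21 of 35.6 ± 2.73 and 34.6 ± 2.15 CPM (SD, n = 3 each, DMSO first). All 8 changed sign under at least 1 of the other scalings, which shifted the median of all genes by −0.25 to 0.19. MRPS36, outside the ribosome, was lower at −0.69 ± 0.13 (edgeR, adjusted p = 2.2e-05).

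Promoter sequences are shown for the 2 highest and the 2 lowest log2 fold changes among the genes with a window. They are also shown for MRPS18A, which was lower, and for MRPS18B, whose small rise did not keep its call in every fit. The motifs of these windows can be set beside the counts over all windows. RefSeq gave a promoter window, 250 bases before to 50 after the annotated start (GRCh38.p14), for 63 of the 71 genes. Capitals mark matches on either strand to CCGGAAG (bound by ETS factors), AAGATGGC (YY1), GGGCGG (the GC box of SP factors), CACGTG (the E-box of MYC and relatives), the palindromic NRF1 motif and TATAAA (the TATA box), and each sequence is given 5′ to 3′ on the gene's strand.
MRPL41 (chr9:137551629-137551928, plus strand): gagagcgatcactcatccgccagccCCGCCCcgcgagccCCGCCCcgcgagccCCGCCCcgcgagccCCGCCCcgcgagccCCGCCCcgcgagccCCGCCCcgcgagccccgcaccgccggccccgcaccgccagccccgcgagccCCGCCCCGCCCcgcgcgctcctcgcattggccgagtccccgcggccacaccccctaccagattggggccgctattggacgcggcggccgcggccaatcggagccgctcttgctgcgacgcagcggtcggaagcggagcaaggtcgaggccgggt
MRPL38 (chr17:75904835-75905134, minus strand): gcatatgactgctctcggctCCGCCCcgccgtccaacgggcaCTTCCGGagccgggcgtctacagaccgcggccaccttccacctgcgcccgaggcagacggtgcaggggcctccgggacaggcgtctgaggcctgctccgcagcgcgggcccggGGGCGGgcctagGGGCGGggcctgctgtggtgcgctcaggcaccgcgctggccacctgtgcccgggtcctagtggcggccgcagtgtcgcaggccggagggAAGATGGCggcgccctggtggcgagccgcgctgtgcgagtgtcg
MRPS6 (chr21:34073328-34073627, plus strand): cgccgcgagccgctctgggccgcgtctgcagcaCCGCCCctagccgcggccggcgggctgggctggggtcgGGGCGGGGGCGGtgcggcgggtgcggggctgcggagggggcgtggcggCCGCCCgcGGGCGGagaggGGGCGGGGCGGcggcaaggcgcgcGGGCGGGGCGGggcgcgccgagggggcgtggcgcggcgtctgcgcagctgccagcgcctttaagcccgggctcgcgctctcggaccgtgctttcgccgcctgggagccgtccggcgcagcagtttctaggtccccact
MRPL3 (chr3:131502922-131503221, minus strand): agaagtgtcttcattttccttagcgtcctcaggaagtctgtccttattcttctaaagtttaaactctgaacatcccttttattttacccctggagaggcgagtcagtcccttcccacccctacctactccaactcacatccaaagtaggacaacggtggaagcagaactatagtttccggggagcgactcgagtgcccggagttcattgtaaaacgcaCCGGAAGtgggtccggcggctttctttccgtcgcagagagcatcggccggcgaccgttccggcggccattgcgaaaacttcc
MRPS18A (chr6:43687742-43688041, minus strand): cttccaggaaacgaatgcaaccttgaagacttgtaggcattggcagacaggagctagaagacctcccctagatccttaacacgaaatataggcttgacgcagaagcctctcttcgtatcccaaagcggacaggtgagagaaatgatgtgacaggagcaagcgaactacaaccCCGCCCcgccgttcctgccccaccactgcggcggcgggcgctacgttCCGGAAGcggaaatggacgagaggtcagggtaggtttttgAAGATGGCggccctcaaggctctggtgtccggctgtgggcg
MRPS18B (chr6:30617590-30617889, plus strand): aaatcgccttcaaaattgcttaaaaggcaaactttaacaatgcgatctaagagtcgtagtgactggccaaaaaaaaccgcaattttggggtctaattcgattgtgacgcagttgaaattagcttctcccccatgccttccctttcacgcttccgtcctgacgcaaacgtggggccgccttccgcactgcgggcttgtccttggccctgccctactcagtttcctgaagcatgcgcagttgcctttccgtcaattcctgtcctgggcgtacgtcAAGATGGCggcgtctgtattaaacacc

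The windows of MRPL41 and MRPL38, both higher, held 8 and 3 GC boxes, and that of MRPS6, the gene with the largest decrease, held 9. Those of MRPL38, MRPL3 and MRPS18A each held an ETS match, and those of MRPL38, MRPS18A and MRPS18B each held a YY1 match shortly after the start. Counted over all windows, CCGGAAG was present in 26 of the 63 (41.3%), against 10.7% of all 27305 RefSeq promoters and 19.7% of those of 9698 tested protein-coding genes. AAGATGGC was present in 18 of the 63 (28.6%), against 3.03% and 5.51%. GGGCGG was present in 39 (61.9%), against 44.6% and 70.4%. CACGTG was present in 4 (6.35%), against 7.43% and 10.2%, TATAAA in 2 (3.17%), against 11.95% and 5.44%, and the NRF1 motif in 1 (1.59%), against 1.36% and 2.41%. A match of letters is a description and not a bound site.

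The motifs were found in genes that moved in either direction. Of the 26 genes with CCGGAAG, 20 were lower and 4 higher, with a median log2 fold change of −0.75 against −0.55 in the windows without it. Of the 18 with AAGATGGC, 9 were lower and 4 higher, with a median of −0.30 against −0.62 without it. Of the 39 with GGGCGG, 26 were lower and 9 higher, with a median of −0.56 against −0.73 without it. Whatever the motif, 66.2% of the 71 genes were lower and 22.5% higher, against 41.1% and 43.5% of all genes tested. The shares called among other genes with each motif were not counted. The differences between genes with and without a motif were not tested.

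The change varied with gene span. Across the 71 genes, Spearman's rho of the log2 fold change with the span of the gene was −0.46, and across 11873 protein-coding genes it was −0.34. These correlations are across genes of the same 6 libraries, and genes are not independent replicates. The mitochondrial ribosomal protein genes are short, with a median span of 11055 bases and a median of 5 exons, against 30782 bases and 9 exons for the protein-coding genes. The relation with the number of exons was weaker, at −0.31 and −0.20, as was that with the transcript length, at −0.19 and −0.14. With the DMSO level on the log2(FPKM + 1) scale, rho was −0.10 across the 71 genes and −0.33 across 10837 protein-coding genes, but with the fold changes of the deposited table it was −0.09 and −0.16.

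In every class of span the median of these genes was below that of protein-coding genes. The classes were not matched for level. The median DMSO log2(FPKM + 1) was 5.86 over the 71 genes and 4.25 over 10837 protein-coding genes. What level contributes to the gap was not tested. With spans up to 5 kb, 19 of the genes had a median log2 fold change of −0.36, against 1.03 for 1046 protein-coding genes, and 12 of the 19 were lower where 20.7% of the protein-coding genes were. With spans of 5 to 15 kb, 28 genes had a median of −0.40 against 0.35, and 15 were lower where 31.7% of the protein-coding genes were. With spans over 15 kb, 24 genes had a median of −1.05 against −0.42, and 20 were lower and 1 higher where 55.5% and 27.8% of the protein-coding genes were. The gene with the long span that was higher was MRPL33, whose model reaches over 216371 bases. Span here is the full extent of a gene's annotated transcripts, which can exceed that of its main transcript. MRPL33 shares 21.1% of its exon bases with BABAM2 on the same strand.

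**Figure D3:**
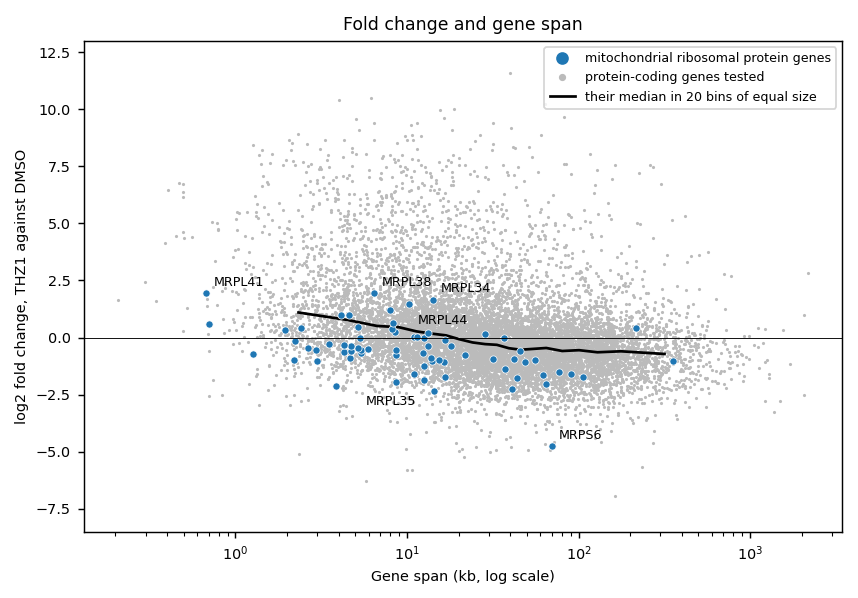
Log2 fold change of THZ1 against DMSO (y axis) by gene span in kb (x axis, log scale) for the 71 mitochondrial ribosomal protein genes (blue) and the protein-coding genes tested (grey), with the running median of the grey points in black. Most blue points lie under the black line, MRPL41 at 1.96 is at the short end and MRPS6 at −4.77 lies lowest of the blue points.

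Several of the genes start head to head with a neighbour on the opposite strand. With a limit of 1000 bases between the starts, 19 of the 71 genes had such a partner, and 18 had one that was tested. Both genes were lower in 1 case, both higher in 3, opposite in 5, and in 9 cases at least one of the pair was not called. The same tally over head-to-head pairs of other genes was not made. The pair MRPS11 and MRPL46 is counted for both genes, since each is the other's partner at 63 bases. MRPS11 was at a mean of 43.5 ± 1.73 CPM with DMSO and 34.1 ± 0.139 CPM with THZ1 (log2 fold change −0.35 ± 0.09, edgeR, adjusted p = 9.2e-04). MRPL46 was at 3.31, 5.74 and 4.39 CPM with DMSO and 9.60, 12.6 and 9.09 CPM with THZ1 (1.21 ± 0.21, edgeR, adjusted p = 2.7e-06). The neighbours thus moved apart by the counts, but the rise of MRPL46 was not seen in the deposited table, as given further on.

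The other opposite pairs were MRPL57, MRPL52 and MRPL54 with their neighbours. MRPL57 rose by 0.40 ± 0.09 while SKA3, a kinetochore gene whose start is 106 bases away, changed by −2.38 ± 0.11 (edgeR, adjusted p = 8.6e-05 and 9.1e-19). MRPL52 was lower at −0.44 ± 0.09 while SLC7A7, an amino acid transporter subunit, was higher at 2.29 ± 0.15 (edgeR, adjusted p = 6.1e-05 and 3.7e-15). MRPL54 was lower at −0.49 ± 0.12 and APBA3 higher at 0.98 ± 0.09, with their starts 990 bases apart. Pairs with the same direction were MRPL47 with NDUFB5, a complex I subunit, at −1.08 ± 0.10 and −2.44 ± 0.13, and MRPL49 with FAU, a cytoplasmic ribosomal protein gene, at 0.45 ± 0.08 and 0.55 ± 0.10. MRPL10 and LRRC46 were both higher at 0.63 ± 0.10 and 2.83 ± 0.21. The 19 genes with a partner included 8 lower and 5 higher, with a median of −0.11, and the 52 without one included 39 lower and 11 higher, with a median of −0.77, a difference that was not tested.

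**Figure D4:**
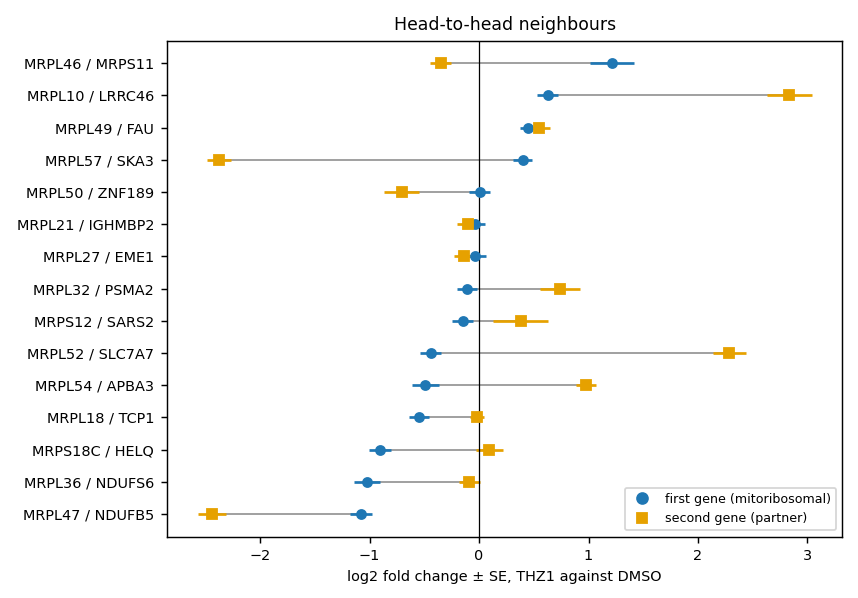
Fitted log2 fold change (x axis, ± SE) of 15 mitochondrial ribosomal protein genes (blue circles) and of the protein-coding gene that starts head to head with each within 1000 bases (orange squares), joined by a line. MRPL57 and SKA3 lie on opposite sides of 0, whereas MRPL47 and NDUFB5 are both to the left and MRPL49 and FAU both to the right.

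Overlap with other genes was common. Of the 71 genes, 36 share exon bases with another annotated gene, 15 of them with a gene on the same strand, and 15 share over 20% of their exon bases. Among the 56 others, 39 were lower and 10 higher, with a median log2 fold change of −0.59. Among the 35 genes with no shared exon base, 23 were lower and 5 higher, with a median of −0.56. MRPL53 shares 72.8% of its exon bases with CCDC142 on the same strand, which rose by 2.23 (edgeR, adjusted p = 9.8e-20), so the assignment of its reads is uncertain. Named pseudogenes exist for 31 of the 71 genes, and 58 of the 59 pseudogenes in the count table had at most 50 counts over the 6 libraries. For some genes this was still a sizeable share: over the 3 THZ1 libraries MRPL53P1 had 21.8% of the counts of MRPL53, MRPS18AP1 had 13.01% of those of MRPS18A and MRPL36P1 had 10.6% of those of MRPL36, against 0%, 1.82% and 0% over the DMSO libraries.

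The second deposited table gave another quantification of the same libraries. Across the 71 genes, its log2 fold changes and those from the counts had a Spearman's rho of 0.997 and a Pearson's r of 0.984, with the same sign for 69 genes. MRPL50 and MRPS30, neither of them called, had opposite signs. With limma on the deposited values, 47 of the 71 were lower, against 44.2% of 16730 genes, and 9 were higher, against 35.6%. The changes were lower by a median of 0.12 than those from the counts, and over all genes the tables differed by −0.26. MRPL46 differed most, at 1.21 from the counts and 0.06 from the deposited values, where it had the lowest DMSO level of the 71 at 1.92. MRPL38 was at 1.95 and 1.32 and also had a low level of 2.63, and MRPS33 with 2.99 was the next lowest. MRPS6 was at −4.77 and −3.62, on a scale where adding 1 to FPKM compresses the changes of low genes.

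**Figure D5:**
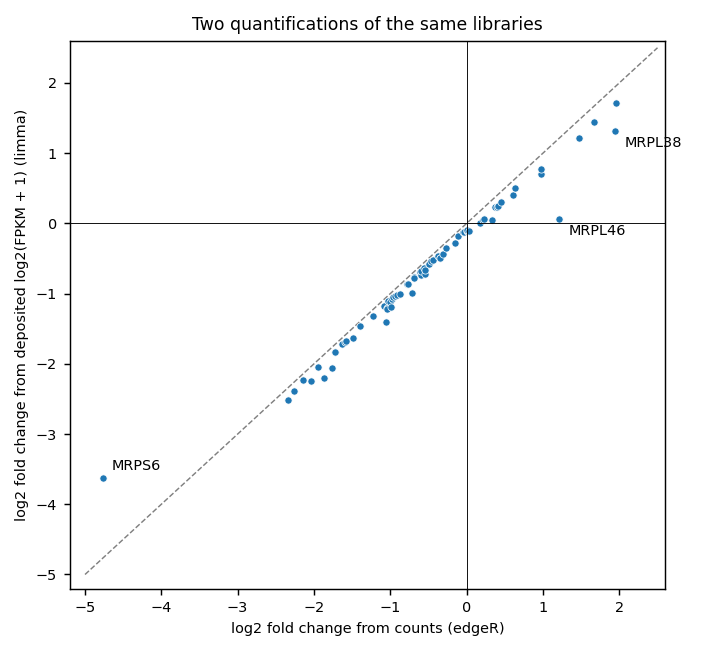
Log2 fold change of the 71 genes from the deposited log2(FPKM + 1) values (y axis, limma) against that from the counts (x axis, edgeR), with the dashed line at equal values. Most points lie along the line and slightly below it, MRPL46 falls to 0.06 on the y axis, and MRPS6 lies above the line at −3.62.

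Ribosomal subunits named outside the MRPL and MRPS system were similar in direction. Of 5 such genes, 4 were lower and none higher, with a median log2 fold change of −0.57. Over all genes tested, 41.1% were lower and 43.5% higher. DAP3, the GTP-binding small subunit protein first described in cell death, fell from 118.8 ± 5.68 to 50.3 ± 4.23 CPM (−1.24 ± 0.08, edgeR, adjusted p = 5.9e-15), and PTCD3, a pentatricopeptide repeat protein of the small subunit, changed by −0.82 ± 0.07 (edgeR, adjusted p = 4.3e-12). AURKAIP1 was at −0.41 ± 0.09 (edgeR, adjusted p = 7.1e-05). CHCHD1 was at 40.8 ± 3.58 and 35.3 ± 2.90 CPM and was not called (−0.21 ± 0.10, edgeR, adjusted p = 0.0507).

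By CPM, the ribosomal RNAs moved the other way. MT-RNR1, the RNA of the small subunit, was at 322, 324 and 351 CPM with DMSO and 1031, 1486 and 1151 CPM with THZ1 (log2 fold change 1.88 ± 0.09, edgeR, adjusted p = 1.4e-18). MT-RNR2, that of the large subunit, was at 1265, 1306 and 1245 CPM with DMSO and 9393, 10325 and 10150 CPM with THZ1 (2.97 ± 0.08, edgeR, adjusted p = 1.2e-25). The groups of both genes are well apart. With the deposited values the changes were smaller, at 1.40 for MT-RNR1 and 1.87 for MT-RNR2. The deposited value of MT-RNR2 was 13.300834 in each THZ1 library, and whether this limits its change was not tested. CPM is relative to the library, and all genes of mitochondrial DNA together rose from 4.32% to 4.37% of counts to 12.6% to 13.6%. Whether the RNA per cell rose was not tested. MT-TV, the valine transfer RNA that is a structural RNA of the human mitoribosome, had no count in any library.

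Assembly factors, which modify and fold the ribosomal RNA, were lower for 15 of 24 genes and higher for 6. Their median log2 fold change was −0.43. The shares over all genes tested were 41.1% lower and 43.5% higher, and over the protein-coding ones 47.6% and 36.3%. METTL15, which methylates the small subunit's RNA, fell from 15.98 ± 1.47 to 3.49 ± 1.14 CPM (−2.19 ± 0.19, edgeR, adjusted p = 6.6e-12). GTPBP10, a GTPase of large subunit assembly, fell from 22.9 ± 2.59 to 5.20 ± 1.64 CPM (−2.14 ± 0.17, edgeR, adjusted p = 6.2e-13). The highest were DDX28, an RNA helicase with a single exon, from 28.0 ± 3.38 to 75.5 ± 6.36 CPM (1.43 ± 0.10, edgeR, adjusted p = 9.3e-15), and METTL17, from 93.1 ± 5.85 to 217.4 ± 9.12 CPM (1.22 ± 0.07, edgeR, adjusted p = 3.0e-16).

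Translation factors and factors that handle the messenger RNAs were lower for 14 of 16 genes (87.5%) and higher for 1 (6.25%). Their median log2 fold change was −0.76, and over all genes tested 41.1% were lower and 43.5% higher. LRPPRC, which stabilizes mitochondrial messenger RNAs, was at 251.6 ± 18.6 CPM with DMSO and 73.3 ± 0.590 CPM with THZ1 (−1.78 ± 0.08, edgeR, adjusted p = 5.5e-20). MTIF2, the initiation factor, was at 63.3 ± 0.765 and 22.2 ± 2.87 CPM (−1.51 ± 0.10, edgeR, adjusted p = 4.9e-15). MTRF1L, a release factor, was the gene that was higher (0.83 ± 0.11, edgeR, adjusted p = 3.1e-08), and MTRFR, which acts in ribosome rescue, was at −0.06 ± 0.09 and not called.

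For comparison, the cytoplasmic ribosomal protein genes were divided nearly evenly. Of 76 tested, 30 were lower (39.5%) and 31 higher (40.8%), against 41.1% and 43.5% of all genes tested. Their median log2 fold change was −0.06. The nuclear genes of complex I subunits, a complex whose other subunits the mitoribosome makes, were lower for 18 of 38 genes and higher for 16, with a median of −0.17. The differences between these gene groups were not tested.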

How the data were processed

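RNA-SEQ data came from 3 DMSO-treated libraries of NALM6 cells and 3 treated with THZ1 (500 nM, 24 h). For each gene the authors deposited a raw read count from htseq-count after STAR mapping to GRCh37. The submitters' processing notes name cutadapt. The gene annotation, the strand setting and the handling of reads in shared exons are not given in the sources used here. They also deposited expression values for 16730 genes, stated to be FPKM from RSEM, which were read as log2(FPKM + 1). Single values recurred exactly across libraries: MT-RNR2 was at 13.300834 in each THZ1 library. MRPL51 in DMSO replicate 3 and MRPL44 in THZ1 replicate 1 were both at 7.811322. The values therefore appear to have passed a further step that makes libraries alike, which the sources do not name. The fold changes, p-values and FDR values in that table are the authors' own comparison and were not used.

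Genes were filtered by edgeR's filterByExpr (10 counts at minimum, 15 in total). After TMM scaling they were tested with the quasi-likelihood test of edgeR 4.0.16 in R 4.3.3, and p-values were adjusted by Benjamini-Hochberg across the 16622 genes. Tests are two-sided. A gene was called at an adjusted p below 0.05, and past the fold threshold when the log2 fold change also reached 1.5 in either direction. The SE is the size of the log2 fold change divided by the square root of F. CPM used the TMM-scaled library sizes. The design had assumed FPKM on a linear scale, so for another pseudocount the values were first returned to a linear scale. They were tested with limma 3.58.1. The fit was also run on simulated data in which few genes changed, equally in both directions. That setting differs from these data, where most genes were called, so it could not test the TMM scaling here.

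The members and the lists of related genes were chosen with earlier results of these data known. The lists came from general knowledge, and MRM1 and WBSCR16 of the assembly factors were not matched to the table. Genes were named by a rule: the 8 lowest and 8 highest log2 fold changes, those past the fold threshold in the rarer direction, those not called, the 3 highest and 3 lowest DMSO levels per length, those whose sign changed with the table or setting, the MRPS18 paralogues, and the 2 lowest and 2 highest of each related list. MRPS27, MRPL11, MRPL4, MRPL33, MRPL53, MRPL40, MRPS36 and the genes in pairs or past the fold threshold were named after their values were seen. Gene positions, exon overlaps and head-to-head neighbours came from GENCODE lifted to GRCh37, and promoters from RefSeq on GRCh38.p14, matched by symbol. Alternatives were DESeq2 1.42.0, library sizes alone, RLE or upper quartile factors, other filters, the deposited values, a replicate block and leaving out each library.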

Additional observations from a re-analysis of the deposited data

How the results depend on the processing

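The number of lower genes stayed between 42 (upper quartile factors) and 54 (library sizes alone) under all alternatives, against 47. The number of higher genes, 16, was 9 with library sizes alone and 9 with the deposited values at each of the 3 settings, and 13 to 19 otherwise; the number higher past the fold threshold, 3, was 1 with the deposited values at each setting. The scales themselves shifted the median of all genes by 0.07 (RLE), 0.19 (upper quartile), −0.25 (library sizes alone) and −0.26 (deposited values). The median of the 71 genes, −0.59, was −0.53 with DESeq2 and with RLE factors, −0.40 with upper quartile factors, −0.84 with library sizes alone, −0.45 with at least 10 counts in every library, −0.68 with no filter, −0.70 with the deposited values at a pseudocount of 1 or a mean of at least 1, and −0.71 at a pseudocount of 0.1. By the deposited values at a pseudocount of 1, the median was −0.25 over all genes tested and −0.46 over the protein-coding ones. Leaving out 1 library gave medians of the 71 genes of −0.69 to −0.48. The cause of these moves was not tested beyond the shifts given.

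Libraries with the same replicate number did not deviate together, with correlations of −0.004, 0.001 and 0.021, and the labels do not say that a number marks a shared culture. With the replicate block the fit called 47 lower and 16 higher, with a median of −0.59. Over all 9 pairings of a DMSO with a THZ1 library the correlations lay between −0.018 and 0.021, and not every library correlated best with its own number.

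Of the named genes, 10 changed sign under some alternative, 8 of them never called in the main test. MRPS12 was 0.044 and MRPL32 0.085 with upper quartile factors, and MRPL32 0.025 when every library had to hold 10 counts. MRPL27, MRPL21 and MRPS5 were 0.025, 0.026 and 0.066 with DESeq2, 0.026, 0.026 and 0.066 with RLE factors, 0.091, 0.092 and 0.13 under that same filter, and 0.15, 0.15 and 0.19 with upper quartile factors. MRPS5 was 0.00014 with the replicate block. MRPL50 and MRPS30 were −0.10 and −0.10 with the deposited values at a pseudocount of 1 or a mean of at least 1, −0.10 and −0.11 at a pseudocount of 0.1, −0.24 and −0.21 with library sizes alone, and −0.081 and −0.054 with no filter. With library sizes alone MRPL22 was −0.073, MRPL15 −0.026 and MRPS18B −0.026. With 1 library left out, MRPL27 ranged from −0.13 to 0.072, MRPS5 from −0.060 to 0.048, MRPL50 from −0.043 to 0.055 and MRPS30 from −0.041 to 0.074. Over the named genes and alternatives, 423 values kept their direction and side of the threshold, 12 passed it newly and 21 no longer did, among them MRPL46 and MRPL51 with the deposited values (0.06 and 0.05).

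The THZ1 libraries held fewer counts, and genes at a few CPM, such as MRPL12, MRPL53 and MRPS33, had the largest SEs, up to 0.24.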

Other observations

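In 29 pairs of a mitochondrial ribosomal protein gene and a tested gene that overlaps its exons on the opposite strand, 19 moved the same way, 8 moved opposite ways and 2 had a gene that was not called. Of all genes tested 41.1% were lower and 43.5% higher, and the share of matching pairs over all overlapping genes was not counted. The following are 3 of the 8 and 1 of the 19. MRPL20-AS1, an antisense gene that shares 4.99% of the exon bases of MRPL20, was at 44.1, 46.6 and 52.7 CPM with DMSO and 83.2, 84.4 and 76.2 CPM with THZ1, higher in each THZ1 library (log2 fold change 0.77 ± 0.09, edgeR, adjusted p = 1.3e-09), whereas MRPL20 fell from a mean of 90.8 to 62.2 CPM (−0.55 ± 0.09, edgeR, adjusted p = 2.4e-06). KLC4, which shares 5.80% of the exon bases of MRPL2, rose by 1.5 (edgeR, adjusted p = 1.0e-15) while MRPL2 was at −0.69 ± 0.11 (edgeR, adjusted p = 6.2e-07). SEMA4G shares 34.0% of the exon bases of MRPL43 and rose by 1.37 (edgeR, adjusted p = 5.5e-12) while MRPL43 was at −0.37 ± 0.09 (edgeR, adjusted p = 4.3e-04). ACTL6A, a chromatin remodeling subunit, shares 9.01% of the exon bases of MRPL47 and fell with it, at a log2 fold change of −1.75 ± 0.08 (edgeR, adjusted p = 1.4e-18). These genes were chosen after their values were seen, and with the strand setting of the counting not given, reads of such pairs cannot be told apart.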
